A study of Mus musculus with 4 samples.

Results

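At E11.5, when the mouse gonad takes the testicular or the ovarian path, single cells of XY gonads lacking the miR-17~92 cluster (KO) were set against single cells of XX control gonads, to see how far XY cells without the cluster matched the profile of cells bound for the ovary. The comparison took in 5 cell types, as named in the deposited annotation: bipotential progenitors (pre-supporting cells), coelomic epithelium, interstitial progenitors, primordial germ cells and supporting-like cells (SLCs). Its members were the 4743 KO cells and the 981 XX cells of these types, 5724 of the 52745 cells in the series. UMIs, the counts of distinct mRNA molecules, were summed over all cells of a type in a sample and expressed as counts per 1000000 UMIs of that type (CPM). The XY control gonads of the same age are given beside them as a further level, so that KO over XX values can be set beside those of XY control over XX cells.

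The KO embryos carried a homozygous CRISPR/Cas9 deletion of miR-17~92. They were made by tetraploid complementation from G4 embryonic stem cells, an XY line of mixed C57BL/6J and 129 background. How many modified clones contributed is not stated. The XY controls came from the unmodified G4 line by the same route, whereas the XX controls were bred from C57BL/6J fathers and 129 mothers; GEO's strain entry, C57BL/6 x 129S4/SvJae, is the same for all samples. Each sample was a pool of 3 to 4 pairs of gonads with their mesonephros, fixed in methanol and run as 2 technical replicates, so there was 1 biological sample per group. KO and XX samples therefore differed in sex chromosomes, in the deletion, in the way the embryos were made, in depth and in cell filters. The contributions of these factors cannot be told apart. No difference below has a replicate check; the 95% intervals are exact (Poisson for a level, binomial for a ratio), cover counting error only, and no p-value is given.

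In XY pre-supporting cells a brief pulse of Sry, the testis-determining gene on the Y chromosome, turns on Sox9, which then sustains the Sertoli cell programme and represses ovarian genes. In XX cells Wnt4 and Rspo1 activate beta-catenin signalling, and Foxl2, Fst and others follow as pre-granulosa cells form. The miR-17~92 locus encodes a single primary transcript from which several miRNAs are cut, and each of these lowers mRNAs that carry a match to its seed, bases 2 to 8 of the mature miRNA. The 6 miRNAs encoded by the deleted locus are printed here, and their loss from KO cells was not measured. Sequences are the RefSeq mature forms (GRCm38.p6, plus strand), 5′ to 3′, with the seed in capitals.
mmu-miR-17-5p: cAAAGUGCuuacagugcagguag
mmu-miR-20a-5p: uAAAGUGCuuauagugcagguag
mmu-miR-18a-5p: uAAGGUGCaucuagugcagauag
mmu-miR-19a-3p: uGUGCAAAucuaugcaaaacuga
mmu-miR-19b-3p: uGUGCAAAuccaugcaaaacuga
mmu-miR-92a-3p: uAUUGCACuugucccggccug
miR-17-5p and miR-20a-5p shared a seed, as did miR-19a-3p and miR-19b-3p, while miR-18a-5p and miR-92a-3p each had one of their own, giving 4 seed families. The 6 hairpins lie within 836 bp of chromosome 14 (115043671 to 115044506), inside the host transcript Mir17hg (115042879 to 115046727).

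The samples carried the sex of their labels, and no value here checks the deletion itself. Xist, the RNA that coats the inactive X chromosome, was at 826 CPM over all XX cells, 0.288 CPM in the KO sample and 0.390 CPM in the XY control, while the Y-linked Ddx3y was at 25.4 CPM in the KO sample, 18.3 CPM in the XY control and 0 in the XX sample. Mir17hg was at 156 CPM in the KO sample, 18.2 CPM in XX and 19.8 CPM in the XY control, so the host transcript was high where the miRNAs had been deleted; the 3′ reads of this method count the host transcript and not the miRNAs. The XX sample was smaller and deeper, with 3669 cells at a median of 15509 UMIs against 17057 cells at 4763 UMIs in the KO sample. It held 450 cells of at least 30000 UMIs and the XY samples held 0. Cell barcodes shared by a KO and an XX library numbered 4 to 7 per pair of libraries.

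The markers of the named types were only in part highest in their own type. In KO germ cells all 6 were, Dppa3 among them (1304 CPM), and Pax8 and Ncam1 were in SLCs (2 of 3), while 1500015O10Rik, at 1.36 CPM in SLCs, was highest in immune cells at 1.78 CPM. In KO interstitial progenitors Pdgfra, Tcf21 and Wnt5a were (3 of 6), while Nr2f2 and Col1a2 were highest in the mesonephros and Maf in immune cells. In the KO epithelium Upk3b and Lhx9 were (2 of 6), while Krt18 and Krt19 were highest in the mesonephric epithelium. Of 7 pre-supporting markers Wt1 alone was highest in KO pre-supporting cells (498 CPM); Wnt4 was highest in SLCs, and Wnt6, Runx1, Nr5a1, Gata4 and Sry were second there to the 24 Sertoli cells. Msln, an epithelial marker, was at 0.100 CPM in the KO epithelium, close to absent. In the XX sample, where the Sertoli cells were too few to be ranked, Wnt6, Runx1, Wt1 and Gata4 were highest in pre-supporting cells. Pax8, Ncam1 and 1500015O10Rik (1.61 CPM) were highest in XX SLCs. In XX germ cells, interstitial progenitors and epithelium, the markers highest in their own type were the same as in KO cells. Pre-supporting cells made up 22.7% of KO gonadal cells, 35.8% of XX and 22.6% of XY control gonadal cells; germ cells made up 3.46%, 8.55% and 7.66%. Sertoli cells, which the annotation keeps apart, were 24 in the KO sample, 2 in the XX sample and 752 in the XY control (0.503%, 0.203% and 10.4% of gonadal cells). Shares of fixed and filtered cells in 1 pool per group carry no error beyond counting, and the filters of the XX sample differed from those of the XY samples.

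In pre-supporting cells, the lineage in which the choice is made, KO cells were below the XY control in each of the 12 testis genes with at least 100 UMIs summed over KO and XX cells. Of 9014 autosomal genes counted by the same limit, 62.8% had a log2 ratio of KO over XY control below 0. Cyp26b1 was near the XX level, and Sox9 was about 2-fold above it. Sry gave 31 UMIs in 1084 KO cells, 0 in 352 XX cells and 115 in 1641 XY control cells, or 5.14 CPM (3.49 to 7.30), 0 and 14.6 CPM. With a floor of 3 counts for the XX cells, Sry was at least 11.6-fold higher in KO than in XX cells, and it was lower in KO than in XY control cells by a log2 ratio of -1.49. Sox9, the direct target of SRY, was at 20.1 CPM (16.7 to 24.0) in KO, 9.29 CPM (7.14 to 11.9) in XX and 199.6 CPM in XY control cells. Its log2 ratio was 1.11 (0.66 to 1.57) for KO over XX and 4.41 for XY control over XX, so that Sox9 in KO cells stood above the XX level and far under that of the XY control. The technical replicates kept this order, with Sox9 at 15.3 and 24.4 CPM in KO, 10.3 and 8.37 CPM in XX and 190 and 210 CPM in XY control cells, although without the second KO or the second XX replicate the KO over XX log2 ratio was under 2-fold (0.73 and 0.95). In the coelomic epithelium Sox9 was also past 2-fold higher in KO than in XX cells (1.03). There it was at 0.94 without the second KO and 0.56 without the second XX replicate.

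**Figure D1:**
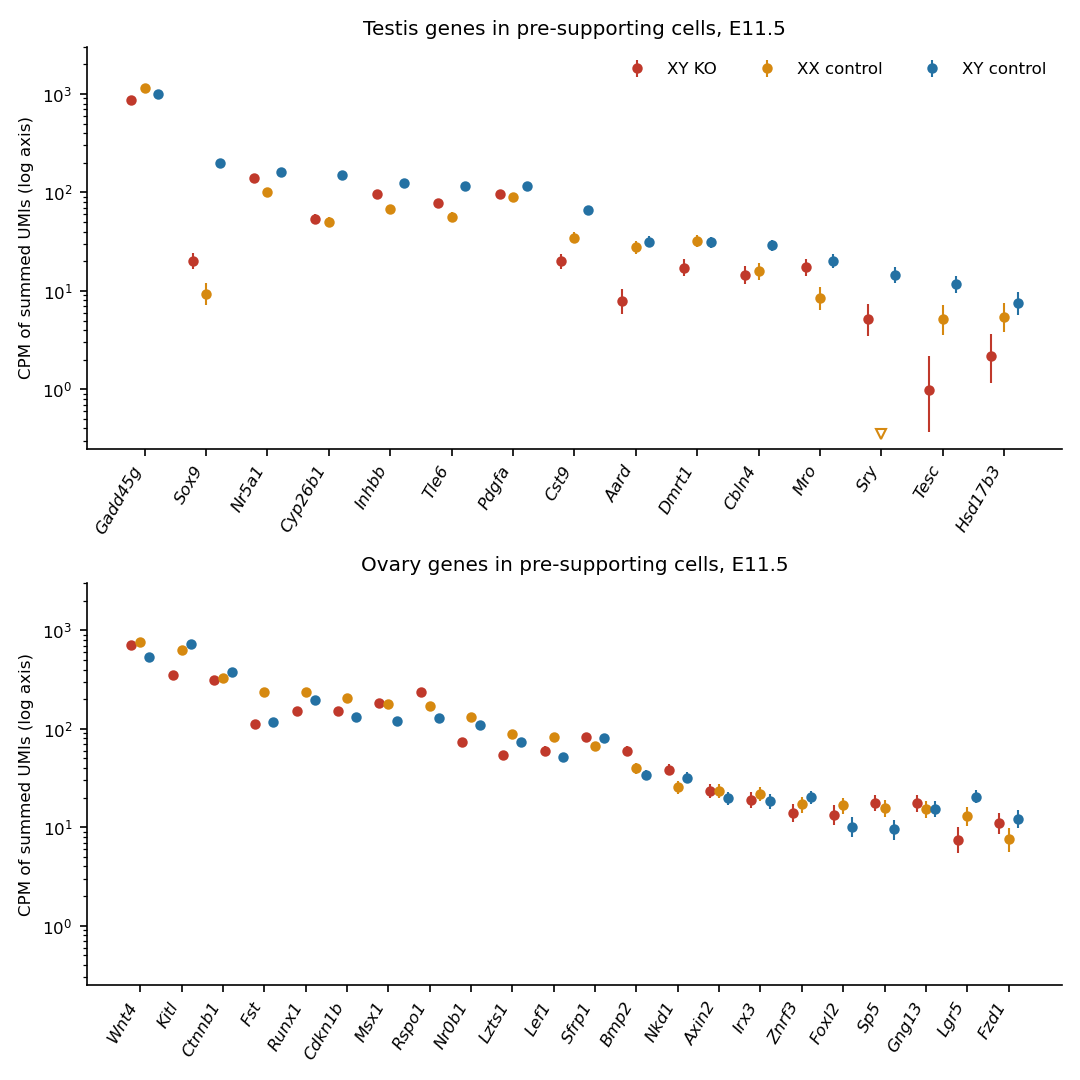
Levels of testis genes (upper panel) and ovary genes (lower panel) in pre-supporting cells at E11.5, as CPM of summed UMIs on a log axis, with 1 point per sample (XY KO, XX control, XY control), exact 95% Poisson intervals and an open triangle for Sry, which gave 0 UMIs in XX cells. Sox9 in KO cells (20.1 CPM) sits above the XX level (9.29 CPM) and far under the XY control (199.6 CPM), and Fst is lower in both XY samples (111 and 117 CPM) than in XX cells (237 CPM).

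The other testis genes showed no single pattern. Fgf9, a growth factor that sustains Sox9, gave only 16, 8 and 73 UMIs in KO, XX and XY control cells (2.65, 1.18 and 9.26 CPM), and its KO over XX log2 ratio of 1.13 (-0.14 to 2.60) included 0. Cyp26b1, which degrades retinoic acid, was at 53.9 CPM in KO, 50.1 CPM in XX and 152 CPM in XY control cells, so it was at the XX level in KO cells (0.10, -0.12 to 0.33). Where KO and XX cells together gave 100 UMIs or more, the 2 testis genes at or above 2-fold in KO over XX were Sox9 and Mro, a nuclear protein of the early testis, at 17.4, 8.41 and 20.04 CPM with a log2 ratio of 1.05 (0.57 to 1.54); Mro was under 2-fold without the first KO replicate (0.94). Nr5a1, a transcription factor of the early gonad that acts with SRY on Sox9, was at 140.5, 100.3 and 162 CPM (0.49) and Inhbb, an inhibin subunit, at 96.4, 68.4 and 126 CPM (0.49), with KO cells between the controls. Aard went the other way, at 7.96 CPM in KO, 27.7 CPM in XX and 31.7 CPM in XY control cells (-1.79, -2.29 to -1.34). Dmrt1, a sex-determining transcription factor, was at 17.2, 32.3 and 31.3 CPM (-0.90) and Cst9 at 19.9, 34.7 and 65.8 CPM (-0.80), both lowest in KO cells. Amh, the hormone of the Sertoli cell, gave 14, 2 and 11 UMIs and Tesc 6, 35 and 92, too few in KO and XX cells to be counted in KO over XX. Amh thus gave more UMIs in KO than in XY control cells.

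Of the 24 testis genes, 12 had the 100 UMIs over both samples that counting required, and of these 2 were at least 2-fold higher and 1 at least 2-fold lower in KO than in XX cells. Over all 9412 genes tested in pre-supporting cells 1.95% were at least 2-fold higher and 2.19% lower, 4.14% in all. The median log2 ratio of the 12 was 0.09, beside 0.02 over all genes tested; in XY control over XX cells the list had 4 higher and 0 lower with a median of 0.88, where 1.64% of all genes were higher and 0.48% lower (2.12% in all). Without 1 technical replicate at a time the KO median ran from -0.05 to 0.34. Among the 12 genes KO cells had the lowest of the 3 levels in 5, a level between the others in 7 and the highest in 0. The order of the 3 levels was not counted over all genes. The KO over XX and XY control over XX ratios share the XX sample and are only set side by side.

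Ovary genes in KO pre-supporting cells were neither uniformly at the XX level nor at that of the XY control. Wnt4 was at 712 CPM in KO, 756 CPM in XX and 539 CPM in XY control cells, a KO over XX log2 ratio of -0.09 (-0.15 to -0.03). Rspo1, which amplifies Wnt signalling, was highest in KO cells at 237 CPM, against 171 CPM in XX and 130 CPM in XY control cells (0.47, 0.36 to 0.58), and the signalling molecule Bmp2 likewise at 59.7, 39.7 and 33.9 CPM (0.59). Msx1 was at 182, 179 and 119 CPM (0.02). Rspo1 and Bmp2 thus stood above the XX level in KO cells, Msx1 at it, and Wnt4 slightly under it and above the XY control.

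Other ovary genes had values under the XX level in KO cells, and of those described here Fst was past 2-fold. Fst, an activin antagonist, was at 111 CPM in KO, 237 CPM in XX and 117 CPM in XY control cells, so that the KO level was that of the XY control (-1.10, -1.23 to -0.96). Its technical replicates gave 103 and 118 CPM in KO and 261 and 214 CPM in XX cells, with no overlap, but without the first XX replicate the log2 ratio was -0.95. Foxl2, the pre-granulosa transcription factor, was still low everywhere, at 13.4, 16.7 and 10.1 CPM, and its ratio of -0.31 (-0.74 to 0.11) included 0. Runx1 was at 150, 237 and 196 CPM (-0.65), Kitl, the ligand that germ cells need, at 354, 639 and 729 CPM (-0.85), and Nr0b1 at 73.1, 131 and 110 CPM (-0.84), each lowest in KO cells.

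Over the list, 23 of 24 ovary genes were counted, with 0 at least 2-fold higher and 2, Fst among them, at least 2-fold lower in KO than in XX cells, and a median log2 ratio of -0.18, where 1.95% of all genes were higher and 2.19% lower. The same list in XY control over XX cells had 0 higher, 1 lower and a median of -0.25, where 1.64% and 0.48% of all genes were. KO cells had the lowest of the 3 levels in 9 of the 23 genes, the highest in 7 and a level between in 7, an order not counted over all genes. None of the 16 genes of the bipotential gonad list that were counted was past 2-fold (median 0.29, and 0.27 in XY control over XX cells).

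Shares of cells with a UMI kept the order of the summed levels once cells were thinned to 3000 UMIs each, which equalises depth and left out 54 KO, 3 XX and 173 XY control cells. Sry was found in 1.55% of 1030 KO cells (0.890 to 2.51), 0 of 349 XX cells, which allows a share of cells with a UMI of up to 0.860% (3 counts of 349), and 4.50% of 1468 XY control cells. Sox9 was found in 5.15% of KO (3.88 to 6.68), 1.15% of XX (0.313 to 2.91) and 23.4% of XY control cells, against 2.35%, 0.680% and 2.87% in immune and endothelial cells of the same samples, which should lack it. Thus the XX share of Sox9 was at the level of that background, whose cells had median depths of 8171, 18062 and 4111 UMIs before thinning. Fst was found in 13.5% of KO, 28.7% of XX and 16.2% of XY control cells, and Rspo1 in 45.9%, 39.0% and 30.8%. Wnt4 was found in 71.5%, 79.4% and 61.3% and Foxl2 in 3.01%, 5.44% and 2.59%. In the immune and endothelial cells Fst was found in 0.882%, 2.04% and 0.755%, Rspo1 in 1.47%, 4.08% and 1.21% and Wnt4 in 5.59%, 10.2% and 7.86%. Foxl2 was found there in 0 of 340 KO and 0 of 147 XX cells, which allows shares of up to 0.882% and 2.04%, and in 0.755% of XY control cells. Before thinning the share with Sox9 was 7.75%, 9.94% and 27.7%, which put the deeper XX cells above KO cells.

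Away from the sex-determining genes, pre-supporting cells had the most genes past 2-fold of the 5 types, 184 higher and 206 lower in KO than in XX cells. The balance turned to 203 higher and 148 lower without the second XX replicate, and to 216 and 187 with totals that excluded globin, mitochondrial and ribosomal protein genes. Of genes with at least 200 UMIs in KO and XX together, Xist left out, the lowest were H19, Tsix, Gm28085, Sprr2d and Klk1. H19 is described below. Tsix, the antisense partner of Xist, gave 1 UMI in KO and 623 in XX cells, and reads of the 2 overlapping genes may not be told apart. Sprr2d is a cornified envelope protein and Klk1 a kallikrein. Sprr2d was at 17.4 CPM in KO, 245 CPM in XX and 92.3 CPM in XY control cells (-3.81, -4.11 to -3.53), and Klk1 at 4.15, 57.8 and 26.0 CPM (-3.77). Both were low in KO cells beside either control.

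Among the highest, 2 genes stood at a like level in both XY samples. Tpm3-rs7 was at 62.0 CPM in KO, 1.92 CPM in XX and 71.4 CPM in XY control cells, and Mid1, a microtubule-associated ubiquitin ligase encoded on the X chromosome (169685199 to 170005736), at 79.9, 6.78 and 76.1 CPM. 2610028E06Rik (43.6, 4.13 and 8.37 CPM, 3.38), Cst12 (31.0, 3.54 and 4.31 CPM, 3.11) and the homeobox gene Barx2 (65.7, 12.1 and 24.2 CPM, 2.43) were higher in KO cells than in either control. Pdgfra, a receptor that marks interstitial progenitors, was at 88.2, 35.8 and 53.9 CPM (1.30). Pdgfra and Gli2 were among the 4 of 17 interstitial marker genes past 2-fold in KO pre-supporting cells, all higher (Gli2, at 1.18, was at 0.94 without the second XX replicate), with a list median of 0.49 (0.21 in XY control over XX cells) and summed levels of 1017 CPM in KO, 920 CPM in XX and 917 CPM in XY control cells. Of 3 adrenal genes counted 1 was lower and 0 higher: Cyp11a1, the first enzyme of steroid synthesis, was at 18.4, 142 and 70.4 CPM (-2.94). In cells annotated as adrenal gland Cyp11a1 was at 69.2 CPM in KO, 120 CPM in XX and 152 CPM in XY control samples. In the XX sample that is under the pre-supporting level. The summed level of the adrenal markers in pre-supporting cells, Cyp11a1 among them, was 116 CPM in KO, 289 CPM in XX and 204 CPM in XY control cells. Whether interstitial or adrenal cells among those annotated as pre-supporting had a part in these levels was not tested. Blood markers summed to 1158, 845 and 2730 CPM, and germ cell markers, with 2 of 5 counted lower and 0 higher, to 2364, 3179 and 2707 CPM. Of 37 Wnt pathway genes 1 was past 2-fold, Wnt9a, a Wnt ligand, at 38.8, 15.3 and 16.4 CPM (1.34), and the list median was 0.29 beside 0.21 in XY control over XX cells. Among 9 genes of FGF signalling 2 were higher, the feedback inhibitor Il17rd (1.55, but 0.88 without the first XX replicate) and the G1 cyclin Ccnd1 (49.4, 17.5 and 42.9 CPM, 1.49), and 1, Egr1, was lower, where 1.95% and 2.19% of all genes were. The list median was 0.64, beside 0.78 in XY control over XX cells.

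In the other 4 types fewer genes were past 2-fold between KO and XX cells. Of 9789 genes tested in the coelomic epithelium 151 were higher (1.54%) and 47 lower (0.48%), or 2.02% in all. Interstitial progenitors had 140 higher (1.63%) and 79 lower (0.919%) of 8599, or 2.55%. Germ cells had 63 (1.05%) and 19 (0.317%) of 5989, or 1.37%, and SLCs 111 (2.02%) and 26 (0.473%) of 5495, or 2.49%. When cells under 5000 UMIs were left out, which kept 317 of 1191 KO interstitial progenitors and 142 of 499 KO SLCs, the counts were 139 of 7088 and 56 of 3593 genes tested in place of 219 of 8599 and 137 of 5495. The SLC count was 87 and 72 without the first and the second KO replicate. In germ cells the count was 54 without the first XX replicate, and the split of 63 against 19 became 32 against 30 with TMM scaling.

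The 3 contrasts were also counted over the same genes, those with at least 200 UMIs over the 3 samples. A shared pool does not equalise counting error, as summed UMIs differed between samples. In the epithelium they were 9978962 in KO, 4757388 in XX and 10786003 in XY control cells. In pre-supporting cells, of 8961 such genes, 347 (3.87%) were past 2-fold in KO over XX cells, 230 (2.57%) in KO over XY control cells and 159 (1.77%) in XY control over XX cells. Between the technical replicates of KO, XX and XY control 27, 24 and 5 were. KO pre-supporting cells were therefore further from XX cells than XY control cells were, by this count. In the same order, the counts were 183 (1.91%), 79 (0.824%) and 162 (1.69%) of 9589 in the epithelium and 173 (2.16%), 72 (0.9%) and 80 (1%) of 7998 in interstitial progenitors. They were 103 (1.61%), 24 (0.374%) and 44 (0.686%) of 6416 in germ cells and 126 (2.38%), 31 (0.585%) and 56 (1.06%) of 5299 in SLCs. KO cells thus differed in fewer genes from XY control than from XX cells in each of the 5 types. Technical replicates of the XX sample differed in 101 genes in the epithelium, 63 in germ cells and 95 in SLCs, and those of the KO sample in 61 in germ cells. In these 3 types that is more than the count for KO over XY control. In germ cells and SLCs it is also more than the 44 and 56 for XY control over XX cells. The 3 contrasts share samples.

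Most glycolysis genes were higher in KO than in XX cells in each type, 17 of 22 counted in pre-supporting cells and 19 of 20 in interstitial progenitors. The list's median log2 ratio of KO over XX was 0.59 in pre-supporting cells, 0.52 in the epithelium, 0.75 in interstitial progenitors, 0.44 in germ cells and 0.77 in SLCs, against 0.02, 0.02, -0.02, 0.09 and -0.01 over all genes tested. In XY control over XX cells the medians were 0.11, 0.11, 0.41, 0.14 and 0.15. The members past 2-fold numbered 5 higher and 1 lower of 22 in pre-supporting cells, 3 and 0 of 22 in the epithelium, 7 and 0 of 20 in interstitial progenitors, 1 and 0 of 20 in germ cells and 6 and 0 of 17 in SLCs, where the shares of all genes were 1.95% and 2.19%, 1.54% and 0.48%, 1.63% and 0.919%, 1.05% and 0.317%, and 2.02% and 0.473%. The summed level of the list did not follow in pre-supporting cells, at 10500 CPM in KO, 11451 CPM in XX and 10660 CPM in XY control cells, while in interstitial progenitors it was 5565, 3734 and 4085 CPM. The list was chosen with these data known.

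**Figure D2:**
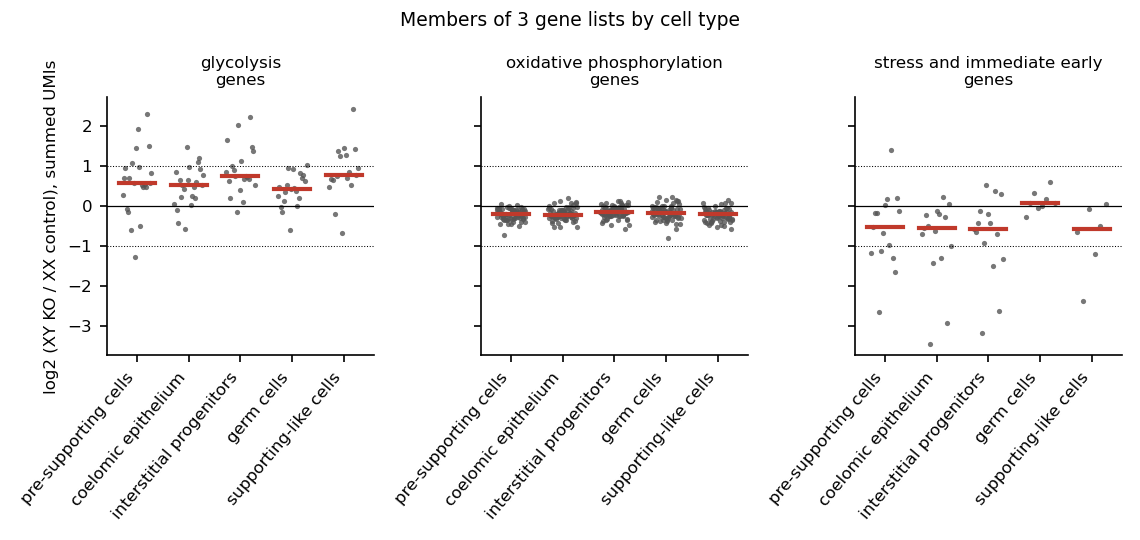
Log2 ratio of KO over XX for each counted member (points) of the glycolysis, oxidative phosphorylation, and stress and immediate early lists in the 5 cell types, with the list median as a red bar, dotted lines at 2-fold and 1 sample per group. Glycolysis medians lie above 0 in each type (0.44 to 0.77), oxidative phosphorylation medians just below 0 (-0.21 to -0.14), and immediate early medians between -0.58 and -0.53 except in germ cells (0.09).

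Slc16a3, a lactate exporter, was at 115 CPM in KO, 23.4 CPM in XX and 41.3 CPM in XY control pre-supporting cells (2.30, 2.05 to 2.56). It was also past 2-fold in the epithelium (1.10), interstitial progenitors (2.22) and SLCs (2.42). Pdk1, the kinase that keeps pyruvate out of the mitochondrion, was at 87.6, 31.9 and 44.9 CPM in pre-supporting cells (1.46) and past 2-fold in the same 4 types. So was the glucose transporter Slc2a1, with log2 ratios of 1.49, 1.21, 1.48 and 1.42 in pre-supporting, epithelial, interstitial and supporting-like cells. Pfkfb3, which sets the pace of glycolysis, was at 21.1, 5.46 and 15.3 CPM in pre-supporting cells (1.94), Tpi1 at 436, 168 and 227 CPM in interstitial progenitors (1.38) and Ldha, which makes lactate, at 426, 178 and 222 CPM in SLCs (1.26). The exception was Ldhb, the lactate dehydrogenase subunit that favours pyruvate, at 2018, 4836 and 4356 CPM in pre-supporting cells (-1.26, -1.29 to -1.23). For Slc16a3 and Pdk1 the XX level was the lowest of the 3 in these 4 types, with the XY control between.

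Oxidative phosphorylation genes moved by little and in the other direction. All 71 were counted in each type and 0 were past 2-fold in any. Of all genes tested, 4.14%, 2.02%, 2.55%, 1.37% and 2.49% were, in pre-supporting, epithelial, interstitial, germ and supporting-like cells. In the same order the median log2 ratio of KO over XX was -0.20, -0.21, -0.14, -0.18 and -0.20, and 3, 7, 12, 12 and 6 of the 71 genes were above 0. In XY control over XX cells the medians were -0.10, -0.10, -0.11, -0.09 and -0.10. The XY samples were filtered on the share of mitochondrial UMIs, whose median was 4.67% in KO, 3.38% in XX and 4.40% in XY control pre-supporting cells.

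Some immediate early genes, which respond to growth factors and also to tissue dissociation, were past 2-fold lower in somatic KO cells, while most of those counted were not. Egr1 was at 7.80 CPM in KO, 48.8 CPM in XX and 24.0 CPM in XY control pre-supporting cells (-2.63, -3.12 to -2.20). In the epithelium it was at 8.42, 91.0 and 58.6 CPM (-3.43), in interstitial progenitors at 22.8, 206 and 64.7 CPM (-3.17) and in SLCs at 12.7, 66.2 and 34.6 CPM (-2.36). Junb followed with log2 ratios of -1.65, -2.92 and -2.62 in the first 3 types. Of the 15 genes of this list counted in pre-supporting cells 5 were past 2-fold lower and 1, Ier3, higher (1.41), where 2.19% and 1.95% of all genes were. In the epithelium and interstitial progenitors 4 of 15 were lower and in SLCs 2 of 6, with 0 higher in each, where 0.48%, 0.919% and 0.473% of all genes were lower. List medians were -0.53, -0.56, -0.58 and -0.57 in pre-supporting, epithelial, interstitial and supporting-like cells and 0.09 in germ cells, beside -0.18, 0.04, -0.29, -0.17 and 0.23 in XY control over XX cells. The part of dissociation in these values was not tested.

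The coelomic epithelium, the outer layer from which supporting and interstitial cells arise, had few genes lower in KO cells. Among genes with at least 200 UMIs in KO and XX together, Xist left out, the lowest after Tsix, H19 and Egr1 were Hoxd11 and Aldh1a1. Hoxd11 was at 8.12 CPM in KO, 28.4 CPM in XX and 17.8 CPM in XY control cells (-1.80). Aldh1a1, an enzyme of retinoic acid synthesis, was at 11.52, 38.3 and 32.1 CPM (-1.73). Among the highest beside Tpm3-rs7 (3.81) and Mid1 (2.81), the ephrin receptor Epha3 was at 22.2, 2.10 and 2.87 CPM (3.34), low in both controls. Adamts9, a secreted protease, was at 55.1, 12.8 and 36.7 CPM (2.09). Of 32 imprinted genes counted 5 were higher and 1 lower, where 1.54% and 0.48% of all genes were, and the list median was 0.13, beside 0.02 over all genes and 0.19 in XY control over XX cells. Igf2, a fetal growth factor, was at 63.6, 26.9 and 35.4 CPM (1.24), Dlk1, a Notch-related growth regulator, at 618, 243 and 369 CPM (1.35), and the non-coding Meg3 at 778, 338 and 538 CPM (1.20), with Ddc and Mirg as the others; Ddc (1.03) was under 2-fold without the first XX or the second KO replicate (0.88 and 0.95). In each of Igf2, Dlk1 and Meg3 the KO level was the highest and the XX level the lowest. Interstitial markers, 3 of 18 higher and 0 lower in the epithelium, summed to 2654 CPM in KO, 2105 CPM in XX and 2729 CPM in XY control cells. Blood markers, 2 of 7 higher and 0 lower, summed to 1175, 751 and 2789 CPM; the part of either in these values was not tested.

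In interstitial progenitors 3 of 12 ovary genes counted were higher in KO than in XX cells and 0 lower, where 1.63% and 0.919% of all genes were, with a list median of 0.09 (0.36 in XY control over XX cells). Of 37 Wnt pathway genes 3 were higher and 1 lower, with a median of 0.03 (0.30 in XY control over XX cells); the lower one, Sfrp2 (-1.01), was under 2-fold with TMM scaling (-0.97) and without the first KO or the second XX replicate (-0.85 and -0.81). Wnt4 was at 257 CPM in KO, 113 CPM in XX and 248 CPM in XY control cells (1.19), and Rspo1 at 96.8, 31.9 and 42.5 CPM (1.60). For Wnt4 the KO level was that of the XY control, for Rspo1 it stood above both controls. Of 4 coelomic epithelium markers counted in interstitial progenitors 2 were higher and 0 lower. Their list summed to 266 CPM in KO, 152 CPM in XX and 208 CPM in XY control cells. Of 5 SLC markers 1 was higher and 1 lower, and that list summed to 676, 483 and 694 CPM. The higher one was Wnt4 itself, so the SLC sum holds the Wnt4 levels given above. The part of either cell type in these values was not tested. Hedgehog genes had 3 of 9 counted members higher and a median of 0.75 (0.52 in XY control over XX cells), among them Gli1 and the receptor Ptch1 (1.02 and 1.03), which were both under 2-fold without the second KO replicate (0.71 and 0.92). Of 11 genes of FGF signalling counted, Dusp6, Egr1, Spry1 and Spry2 were past 2-fold lower and 0 higher, with a list median of -0.10 (0.48 in XY control over XX cells) and 4 members above 0. Spry1 was at -0.67 without the second XX replicate, and Dusp6 at -0.998 in cells of at least 5000 UMIs. S phase genes had a median of -0.63 with 2 of 19 lower, Cdc6, which licenses replication origins, and Uhrf1, which maintains DNA methylation, both under 2-fold in cells of at least 5000 UMIs (-0.95 and -0.94); G2 and M phase genes had a median of -0.16 with 0 past 2-fold. With at least 200 UMIs required, the highest genes not yet named were Plxna4 and Adm. Plxna4, a semaphorin receptor, was at 55.3, 9.54 and 24.2 CPM (2.52) and the vasodilator peptide Adm at 38.0, 6.56 and 15.8 CPM (2.505). Among the lowest by that limit, the homeobox gene Alx1 was at 12.5, 57.6 and 34.97 CPM (-2.19).

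SLCs, an early population of the supporting lineage that contributes to the rete, had 5 of 10 listed marker genes counted. Of these 0 were past 2-fold, where 2.49% of all genes were, with a median of 0.36 beside 0.46 in XY control over XX cells. Sox9 was lower in KO than in XX cells here, at 32.7 CPM in KO, 81.5 CPM in XX and 74.9 CPM in XY control cells (-1.32, -1.78 to -0.87). That is the opposite direction to pre-supporting cells and the coelomic epithelium. Without the first XX replicate the log2 ratio of Sox9 in SLCs was -0.85. Fst was at 30.4, 65.3 and 58.3 CPM (-1.10), and at -0.87 without the first XX replicate. After Slc16a3 (2.42), the highest genes with at least 200 UMIs were the collagen genes Col1a2 (232, 52.4 and 124 CPM, 2.13) and Col1a1 (107, 25.01 and 62.9 CPM, 2.08), Wnt5a (79.8, 19.4 and 34.6 CPM, 2.02) and the fibrillin gene Fbn2 (151, 41.1 and 71.4 CPM, 1.86). Col1a1, Col1a2, Col3a1 and Wnt5a were the 4 of 12 interstitial markers past 2-fold in SLCs, all higher, where 2.02% of all genes were, and the list summed to 1983, 1546 and 1814 CPM; the part of mesenchymal RNA or cells in this was not tested. Col3a1 (1.12) was under 2-fold without the second KO or the second XX replicate (0.78 and 0.95). The vessel receptor Kdr was likewise higher, at 69.4, 19.4 and 30.8 CPM (1.82).

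Germ cells had the fewest genes past 2-fold in the main count. SLCs had fewer with cells of at least 5000 UMIs (56 against 78) and without the first KO replicate (87 against 92). Of 18 germ cell markers 0 were past 2-fold, with a median of -0.11 and 6 of them above 0. As 1.37% of all genes tested in germ cells were past 2-fold, a count of 0 in a list this short is no result about its members. Male germ cell genes had a median of 0.56 over 5 counted and female ones -0.14 over 4 (0.44 and -0.17 in XY control over XX cells), with 0 past 2-fold in either. Where both samples together gave 200 UMIs or more, the highest genes were Sdc4 (87.0, 22.4 and 42.8 CPM, 1.95), Ccng1 (66.5, 18.3 and 32.4 CPM, 1.86), Gm47283 (1.62, described below), Trp53inp1 (81.1, 28.2 and 43.8 CPM, 1.52) and Cd81 (91.4, 33.8 and 46.0 CPM, 1.43, but 0.96 without the first XX replicate). Cdkn1a, a cell cycle inhibitor and the 1 of 15 known targets of the cluster past 2-fold here, was at 32.7, 15.2 and 16.9 CPM (1.10), but at 0.98 with TMM scaling and at 0.81 and 0.82 without the first XX or the first KO replicate. Against only the 20 XX germ cells under 30000 UMIs and 7000 genes, limits that the XY cells met, Sdc4, Ccng1 and Trp53inp1 were at 0.96, 0.84 and 0.99, each under 2-fold. Interstitial markers, 7 of 18 counted in germ cells, had 2 higher (1.05% of all genes were), 0 lower and a median of 0.84 (0.37 in XY control over XX cells), and summed to 317 CPM in KO, 211 CPM in XX and 254 CPM in XY control germ cells; their part in these values was not tested. The 2 were Col1a1 (1.05) and Col1a2 (1.22), under 2-fold without the first XX replicate (0.27 and 0.49) and without the second KO replicate (0.35 and 0.93).

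X-linked genes in germ cells stood apart from autosomal genes. Female germ cells reactivate their silent X around this stage, whereas somatic XX cells keep it silent. The median log2 ratio of KO over XX over 173 X-linked genes was -0.28, with 136 of them (78.6%) below 0 and quartiles of -0.53 and -0.05, beside 0.10 over 5760 autosomal genes. Single autosomes had medians between 0.04 and 0.14. In XY control over XX germ cells 82.7% of the X-linked genes were below 0, with a median of -0.28 beside 0.12 on autosomes. In KO over XY control germ cells the medians were 0.02 and -0.01.

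**Figure D3:**
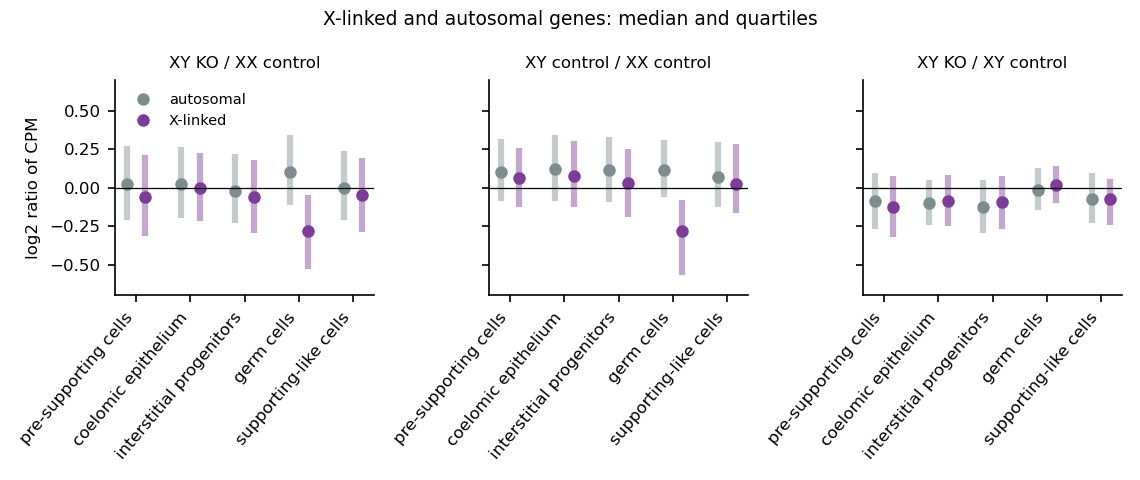
Median log2 ratio of CPM for X-linked and autosomal genes in the 5 cell types, in 3 panels for KO over XX, XY control over XX and KO over XY control; bars run from the lower to the upper quartile of the genes, in 1 sample per group. In germ cells the X-linked median is -0.28 against either XX contrast and 0.02 between the XY samples, and in the 4 somatic types it lies between -0.06 and 0 in KO over XX.

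In somatic cells the X-linked medians were near those of the autosomes. They were -0.06 in pre-supporting cells over 316 genes (autosomes 0.03), -0.06 in interstitial progenitors over 290 (autosomes -0.02) and -0.05 in SLCs over 166. Only in pre-supporting cells was the X-linked median below that of each single autosome (lowest -0.05). In XY control over XX cells it was below each autosome in pre-supporting cells (0.062, lowest 0.075), interstitial progenitors (0.033, 0.047) and SLCs (0.0218, 0.0231), but not in the epithelium. Xist was at 43.7 CPM in XX germ cells (158 UMIs), against 664 CPM in XX pre-supporting cells and 824 CPM in XX interstitial progenitors, and at 6.84 CPM (14 UMIs) in KO germ cells. Among the 20 less deep XX germ cells the Xist ratio was -0.57 in place of -2.63. Of the 19 genes at least 2-fold lower in KO germ cells, 5 were X-linked: Xist, Pin4 (110, 269 and 120 CPM, -1.28), Ercc6l (27.4, 64.8 and 34.7 CPM, -1.23), Pbdc1 (-1.12) and Med14 (-1.002). Ercc6l was under 2-fold without the first KO replicate (-0.87), and Pbdc1 against the 20 less deep XX germ cells (-0.94). These 5 were among 173 X-linked genes tested, and the other 14 among 5760 autosomal genes. In XY control over XX germ cells 5 X-linked and 10 autosomal genes of the same pools were at least 2-fold lower. The division by chromosome was chosen after the values were seen.

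The genes that differed in every type were few. Of 4312 genes counted in all 5, 5 were past 2-fold in the same direction in each: Mir17hg, Gm47283 and Slc38a4 were higher and H19 and Xist lower in KO cells. They were past 2-fold in the mesonephric mesenchyme as well, and only Xist of the 5 was past 2-fold in XY control over XX cells in all 5 types. A further 4167 of the 4312 genes were past 2-fold in 0 types and 106 in 1.

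**Figure D4:**
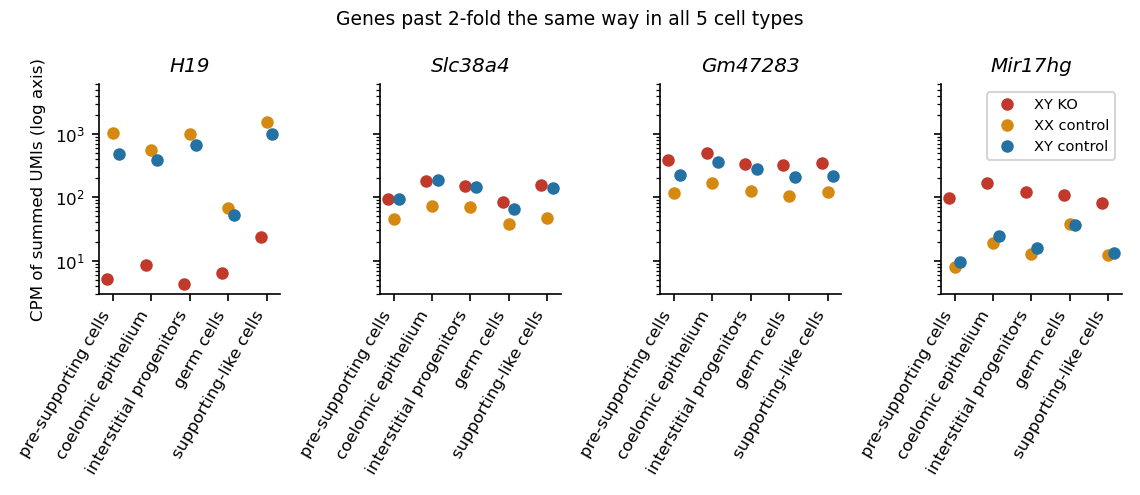
Levels of H19, Slc38a4, Gm47283 and Mir17hg in the 5 cell types, as CPM of summed UMIs on a log axis, with 1 point per sample (XY KO, XX control, XY control) and no error bars. H19 in KO cells (4.24 to 24.0 CPM) lies below both controls in each type, Mir17hg above both, and Slc38a4 near the XY control.

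H19, a maternally expressed imprinted RNA that restrains growth (chromosome 7, 142575529 to 142578143, minus strand), showed the largest of these differences outside the sex chromosomes. It was at 5.14 CPM in KO, 1020.3 CPM in XX and 483 CPM in XY control pre-supporting cells, a log2 ratio of -7.61 (-8.19 to -7.13). In the epithelium it was at 8.52, 558 and 394 CPM (-6.03), in interstitial progenitors at 4.24, 979 and 663 CPM (-7.82), in SLCs at 24.0, 1519 and 991 CPM (-5.97) and in germ cells at 6.35, 68.1 and 52.9 CPM (-3.37). The control samples stood within about 1 log2 unit of each other in pre-supporting cells (-1.08). H19 in KO cells was thus low beside a bred control and beside a control from the same parental stem cell line. The KO sample came from modified stem cell clones, whose number is not stated. The deletion and the history of those clones cannot be told apart.

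Mir17hg, with log2 ratios of 3.62, 3.11, 3.198, 1.55 and 2.72, was high in KO cells alone. Slc38a4, an imprinted amino acid transporter (chromosome 15, 96994820 to 97055956, minus strand), was near the XY control: in the epithelium the controls were at 73.4 CPM (XX) and 187 CPM (XY), and its KO over XX log2 ratios were 1.01, 1.31, 1.09, 1.14 and 1.68, under 2-fold in 3 of the types without 1 technical replicate. Gm47283, on the Y chromosome (90784738 to 90816464), was at 321 CPM in KO, 104 CPM in XX and 206 CPM in XY control germ cells. As XX cells hold no Y chromosome, reads from a near-identical copy elsewhere may be counted in it.

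Genes past 2-fold in 1 type and within 0.5 log2 units of 0 in the other 4 were rare. There were 8 in pre-supporting cells (1 higher and 7 lower, led by Gtf2a1 at -1.33 and the sodium pump subunit Atp1b1 at 1.27), 4 in interstitial progenitors, all higher and led by Spint2 (2.19) and Tnfrsf19 (1.82), 15 in germ cells (13 higher and 2 lower, with Vps4a at -1.53) and 4 in SLCs, all higher and led by Actn1 (1.38). In the epithelium there were 0.

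Transcripts with a seed match to the deleted miRNAs had slightly higher ratios than others in KO over XX cells, and also in XY control over XX cells. The 8-letter sites searched in annotated 3′ UTRs, on the transcript strand and each counted wherever it occurred, were GCACTTTA for miR-17 and miR-20a (3.56% of 20659 genes with a UTR), GCACCTTA for miR-18a (1.35%), TTTGCACA for miR-19 (5.40%) and GTGCAATA for miR-92a (2.31%). These are the reverse complement of the seeds printed above, followed by A. Genes with any site had a median log2 ratio of 0.06 in pre-supporting cells (1300 genes, against 0.02 in 7781 without), 0.13 in the epithelium (against 0.01), 0.06 in interstitial progenitors (against -0.03), 0.24 in germ cells (against 0.07) and 0.07 in SLCs (against -0.02). The difference between the groups was 0.04, 0.13, 0.09, 0.17 and 0.08 in the order given, beside 0.07, 0.10, 0.08, 0.07 and 0.09 in XY control over XX and -0.002, 0.02, 0, 0.07 and 0.01 in KO over XY control cells. Only in the epithelium, germ cells and, by under 0.01, interstitial progenitors was it greater in KO over XX than in XY control over XX cells. The share at least 2-fold higher was 2.69% with a site and 1.80% without in pre-supporting cells, and 2.15% and 0.865% in germ cells. In XY control over XX cells these shares were 1.77% and 1.17% in pre-supporting cells, and 0.538% and 0.216% in germ cells. In KO over XY control cells they were 0.692% and 0.707%, and 0.404% and 0.138%.

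Long UTRs hold more sites, so the difference was also taken within 4 bins of UTR length and averaged. It was 0.06, 0.15, 0.11, 0.15 and 0.11 in pre-supporting, epithelial, interstitial, germ and supporting-like cells for KO over XX, 0.02, 0.06, 0.04, 0.03 and 0.05 for XY control over XX and 0.04, 0.08, 0.06, 0.08 and 0.06 for KO over XY control. In pre-supporting cells most of it came from the shortest UTRs, of 50 to 532 bases and 43 genes with a site, at 0.19, against 0.01 in each of the other 3 bins. These are differences of medians between gene groups within 1 pair of samples and far under 2-fold. Of 41 genes listed as known targets of the cluster 34 were counted in pre-supporting cells, with 2 at least 2-fold higher (1.95% of all genes were), 0 lower and a median of 0.06. In XY control over XX cells 1 was higher and the median was 0.27.

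Mylip, which encodes a ubiquitin ligase that degrades the LDL receptor, is shown as an example, singled out after its values were seen among 34 genes at least 2-fold higher in 3 or more types. Of these, 32 had an annotated UTR and 7 of them a site (21.9%, beside 14.23% of the 8196 genes counted in 3 or more types that had a UTR); the Y-linked Ddx3y was one of the 7. It was at 44.0 CPM in KO, 11.2 CPM in XX and 13.8 CPM in XY control pre-supporting cells (1.96, 1.60 to 2.36), at 32.1, 15.8 and 13.4 CPM in the epithelium (1.02), at 45.7, 13.7 and 20.6 CPM in interstitial progenitors (1.72) and at 65.8, 18.6 and 25.4 CPM in SLCs (1.80). In each of the 4 types the KO level stood above both controls, and in the epithelium the ratio fell under 2-fold without the second XX replicate (0.62). The 1512-base 3′ UTR of Mylip (chromosome 13, plus strand, GRCm38) held 2 sites, printed in DNA letters with the 8-letter match in capitals.
Mylip miR-92 site, chr13:45411696-45411723: gctgacctcatcggGTGCAATActagct
Mylip miR-19 site, chr13:45411810-45411837: tatgcatttgtttcTTTGCACAgacatt
A match describes the letters present, and binding of either miRNA was not measured here.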

How the data were processed

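Single-cell 3′ libraries (10x, v3.1 chemistry) of pooled E11.5 gonads with mesonephros were analysed for XY KO, XX control and XY control embryos, 1 sample per group with 2 technical replicates each; the XY KO sample of E11.75 was used for the gene label check only. According to GEO's processing notes and the published methods, the authors aligned reads to mm10 with Cell Ranger 6.1.1, merged replicates in Seurat, removed doublets with DoubletFinder, and filtered XY cells by mitochondrial and globin share and by upper limits of 30000 UMIs and 7000 genes; XX cells were cleared of low-quality clusters instead, and some exceed these limits. The deposited values were raw UMI counts for 21495 genes in 52745 cells, with the authors' cell annotation and the percent of mitochondrial UMIs per cell. The study's text gives the cell numbers of the KO stages in the opposite order to the deposited table.

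Counts were summed per sample and cell type and divided by the total. Log2 ratios used a prior count of 0.5, genes needed 100 UMIs over both samples, and a gene at or above 2-fold was counted. Intervals of 95% were exact. Since each group held 1 sample, no test across genes was run, no p-value was computed and technical replicates were not used as biological ones. Cells were thinned to 3000 UMIs for shares. Named genes were members of the testis and ovary lists, list members past 2-fold, the 5 highest and 5 lowest ratios per type among genes with 200 UMIs (without mitochondrial, ribosomal, globin and Y-linked genes, Xist and Mir17hg), genes past 2-fold in all 5 types and those in 1 type alone; Mylip, the chromosome medians and the order of levels were added after their values were seen. Members and lists (28 lists, 569 of 575 entries found) were chosen with earlier results of these data known. A few list members enter the counts but are not reported here by name. Alternatives were TMM (edgeR 4.0.16) and median-of-ratios (DESeq2 1.42.0) scaling, a prior of 5, other minimums and folds, cell filters and leaving out each technical replicate. UTRs came from GENCODE M21 (GRCm38) and miRNAs from RefSeq. Python 3.11.15, numpy 2.4.6, scipy 1.17.1, pandas 2.3.3, matplotlib 3.10.9 and R 4.3.3 were used, and the scripts were tested on simulated data.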

Additional observations from a re-analysis of the deposited data

Results flagged for a closer look

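A few genes were past 2-fold in opposite directions in 2 cell types under the same contrast of KO over XX cells; with 1 sample per group the difference between the cell types was not tested. Celf2 had a log2 ratio of 1.21 in the coelomic epithelium and -1.52 in pre-supporting cells. Nr0b1 had 1.36 in interstitial progenitors and -1.08 in SLCs, where it was at -0.95 without the first XX replicate and at -0.80 in cells of at least 5000 UMIs. Adamts9 had 2.09 in the epithelium and -1.07 in pre-supporting cells, at -0.87 there without the second XX replicate. Tagln had 1.44 in SLCs and -1.04 in interstitial progenitors, at -0.96 there without the first KO replicate and at -0.85 in cells of at least 5000 UMIs. Sox9 had 1.11 in pre-supporting cells and -1.32 in SLCs, at 0.73 in the former without the second KO replicate and at -0.85 in the latter without the first XX replicate.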

How the results depend on the processing

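No paired analysis was possible because each group held 1 sample and the replicate numbers of the groups do not mark shared animals or days. None of the 209 named single-gene values past 2-fold reversed its direction; the testis gene median, near 0, did so without the first XX replicate. In the order pre-supporting cells, epithelium, interstitial progenitors, germ cells and SLCs, the number of genes past 2-fold (390, 198, 219, 82 and 137) became 593, 352, 389, 218 and 314 with a minimum of 50 UMIs, 114, 54, 37, 10 and 9 with 500 UMIs, and 4282, 3577, 3265, 3286 and 3290 with no minimum. At a fold of 1.5 it was 1412, 1030, 977, 650 and 642 and at a fold of 4 it was 44, 16, 25, 5 and 11. With cells of at least 5000 UMIs it was 139 in interstitial progenitors and 56 in SLCs. Leaving out 1 technical replicate at a time gave 350 to 361, 161 to 249, 167 to 220, 54 to 92 and 72 to 162 genes. In germ cells 63 higher and 19 lower became 32 and 30 with TMM and 31 and 30 with median-of-ratios scaling, where the median of all genes shifted from 0.09 to -0.03 and -0.05. The medians of the testis and ovary genes in pre-supporting cells ran from -0.05 to 0.34 and from -0.35 to -0.08 over the left-out replicates, and with Sertoli cells added they were 0.11 and -0.21. Of those 209 values, 69 fell under it in at least 1 alternative. The smallest groups, with 84 XX germ cells and 88 XX SLCs, limit what could be counted.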
